A study of Mus musculus with 12 samples.

Results

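The 40 genes described here are chromatin regulators and transcription factors of the mouse, listed because their human counterparts are tied to autism or intellectual disability. They were chosen by gene name, 40 of the 55397 genes in the count table, and all 40 were abundant enough to be tested, among 18264 tested genes. The cultures came from newborn (P0) mice carrying a CRISPR-made frameshift deletion in 1 copy of Myt1l, here (+/−), and from (+/+) controls, on the C57BL/6J background by the labels, where the study names another substrain, and labelled male. The deletion leaves the transcript in place according to the study, so the Myt1l count does not check the genotype. Cells of the newborn mice were dissociated and grown for days in serum with the antimitotic agent Ara-C before RNA was taken. The levels are thus those of cultures and not of newborn tissue. The labels do not say whether the libraries of an animal came from separate cultures. The labels call the tissue cortex, whereas the study's text describes hippocampal cultures. RNA of 3 (+/−) animals (505, 506 and 508) and 3 (+/+) animals (510, 511 and 513) was sequenced as 2 libraries an animal, which were summed, and the animal is the replicate (n = 3 in each genotype). Values are library-scaled counts (CPM, counts per 1e+06 after TMM scaling), and fold changes are (+/−) minus (+/+) on the log2 scale.

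MYT1L is a zinc finger transcription factor of neurons that binds DNA and recruits co-repressor complexes, and loss of 1 copy in people gives a syndrome of intellectual disability, autism and obesity. Many of the genes listed here act in the same layer of control. Remodellers of the CHD and BAF families slide nucleosomes, methyltransferases and demethylases write and erase marks on histone tails, acetyltransferases and co-repressors open and close regulatory elements, and DNA methylation and heterochromatin proteins keep regions silent.

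Summed counts per animal ran from 40642699 to 52833161. The 2 libraries of an animal differed by little more than sampling noise (chi-square per degree of freedom 1.26 to 1.32, against 13.8 to 206 between animals). The 10 pan-neuronal markers (Tubb3, Snap25 and others) were present in every culture, and their summed level was 2355 CPM in animal 505 and 4049 and 4496 CPM in the other (+/−) animals, against 4540 to 5208 CPM in the (+/+) animals. Of these 10 markers, 3 were lower in every (+/−) animal than in every (+/+) animal. Over all tested genes, 13.5% lay below in this way and 15.5% above, which is the background for the marker counts here. All 6 ependymal markers and 5 of 6 choroid plexus markers were higher in every (+/−) animal, and their summed levels were 955 to 1096 CPM against 525 to 714 CPM, and 377 to 1411 CPM against 81.6 to 245 CPM. The other choroid plexus marker, Kl, was lower in every (+/−) animal, at a mean of 0.95 CPM over all animals. Of 6 proliferation markers, 5 were higher in every (+/−) animal (summed level 62.2 to 85.4 CPM against 35.6 to 54.1 CPM). Of 8 microglia markers, 3 were higher in every (+/−) animal (summed level 101 to 191 CPM against 78.1 to 98.97 CPM). Of 4 endothelial markers, 1 was (Kdr), while Pecam1, Flt1 and Cdh5 overlapped (25.6 to 59.0 CPM summed against 15.9 to 24.5 CPM). Of 7 radial glia and progenitor markers, 3 were (Nes, Sox2 and Hes1, summed level of the 7 5552 to 6384 CPM against 3730 to 5563 CPM). Hes5, of the same list, had a log2 fold change of −0.60 and overlapped. None of the markers tested in these 7 lists was at 0 in any animal. In the astrocyte, fibroblast and oligodendrocyte lists, 1 of 8, 0 of 6 and 1 of 6 tested markers were higher in every (+/−) animal. In bulk RNA, fewer cells of a type and less RNA per cell cannot be told apart. The part of these levels in the results below was not tested. Values without animal 505, given below, do not test it either. In animals 506 and 508 the ependymal sums were still 955 and 992 CPM and the choroid plexus sums 701 and 377 CPM, above every control. Animal 511, labelled male, had 18805 Xist counts against 5 to 10 in the others, and no risk gene lies on chromosome X.

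Myt1l itself had 89.0, 146 and 165 CPM in (+/−) animals 505, 506 and 508, and 119, 147 and 109 CPM in (+/+) animals 510, 511 and 513. The log2 fold change was 0.09 (SE 0.22, adjusted p = 0.81). The genotypes overlapped. Animal 505 had the lowest value, and (+/+) animals 510 and 513 lay below (+/−) animals 506 and 508.

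No risk gene passed the threshold (adjusted p under 0.1, edgeR quasi-likelihood test) in either direction, and 0% of all tested genes passed it, the smallest adjusted p of any gene being 0.166. Log2 fold changes of the 40 genes ran from −0.64 to 0.21 with a median of −0.06, against a median of 0.003 over all tested genes. They were negative in 26 of 40 genes (65% against 49.6% of all tested genes). At an unadjusted p under 0.05, 5 genes were lower (12.5%, background 9.11%) and 0 were higher (background 13.2%). The 3 (+/−) animals lay below the 3 (+/+) animals in 10 genes (25%, background 13.5%) and above them in 0 genes (background 15.5%). The class of 10926 tested genes with a mean of 10 CPM or more holds 39 of the 40 risk genes. In that class these backgrounds were 16% below and 14.5% above. At an unadjusted p under 0.05, 10.6% of the class were lower and 12.1% higher. Its median log2 fold change was −0.03 and 54.6% of its genes were negative, against −0.04 and 64.1% for the 39 risk genes. The 10 risk genes below the controls in every (+/−) animal were Setd5, Kdm6b, Bcl11a, Dnmt3a, Tcf20, Chd3, Kdm5b, Kmt2e, Ncor1 and Med13l. Without animal 505 the count below was 12 (background 16.9%), and without animal 511 it was 10 (background 15.2%). With library 1 of each animal alone it was 7 (background 13.3%).

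Of the 16 alternative fits, 5 called 2 to 7 of the 40 genes lower, and none called any higher. DESeq2 on the 6 animals called 3 lower (Setd5, Kdm6b and Bcl11a), where it called 4.57% of all genes lower and 7.77% higher. Without the low-count filter 2 were lower (Setd5 and Bcl11a, background 1.4%), and without animal 513 also 2 (Setd5 and Kdm6b, background 5.95% lower and 12.3% higher). In limma voom on the 12 libraries, with the animal as a random effect, 7 were lower (these 3 with Chd3, Dnmt3a, Tcf20 and Smarca4, background 11%, or 9.88% with a replicate block), and all 7 calls were lost when limma voom was fitted on the 6 animals, where 0 genes of any kind were called. The other 11 fits, among them edgeR with genetic sex as a covariate, called 0.

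The differences were small. Absolute log2 fold changes stayed under 0.25 in 33 of 40 genes (82.5%, against 54.2% of all tested genes and 64.8% of those with 10 CPM or more) and under 0.5 in 39 of 40. The median standard error was 0.10 on the log2 scale, and the 95% intervals of the 40 genes lay between −1.14 and 0.58.

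**Figure D1:**
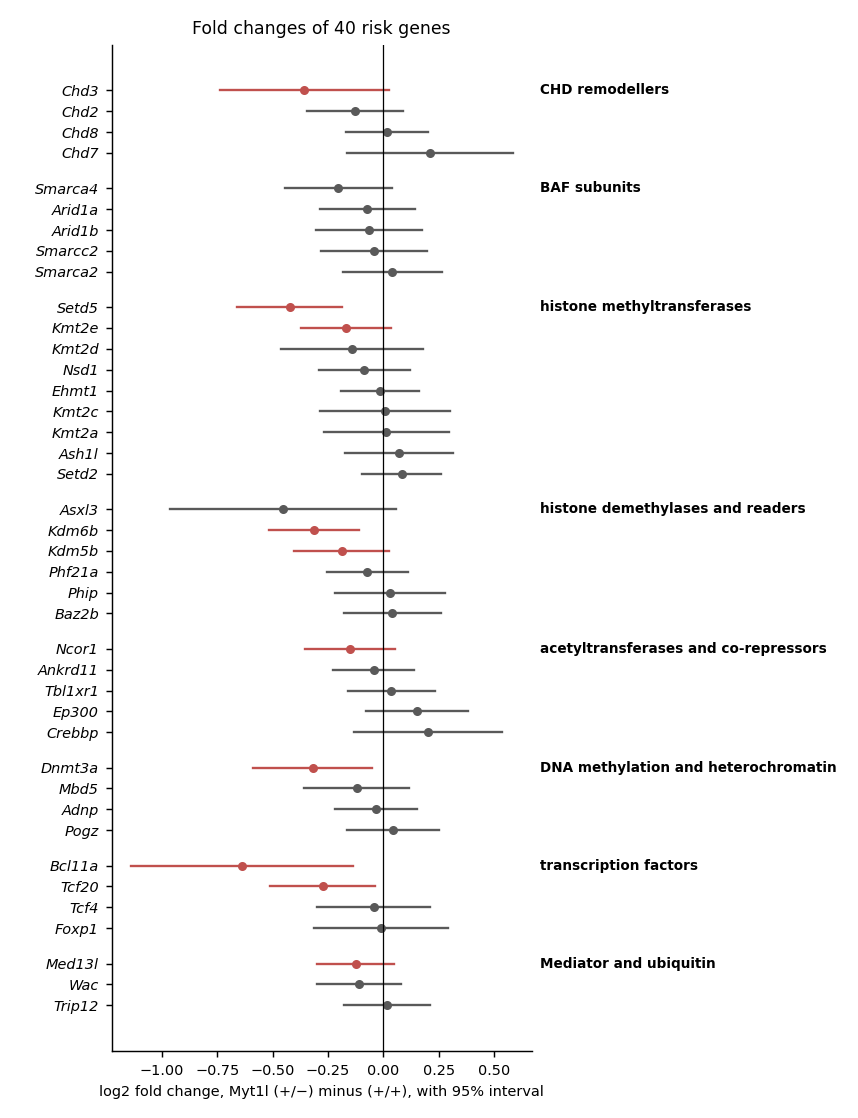
Log2 fold change of each risk gene, (+/−) minus (+/+), on the horizontal axis with its 95% interval from the edgeR fit of 3 against 3 animals, grouped by role; red marks the 10 genes whose (+/−) animals all lay below all (+/+) animals. Bcl11a is farthest left at −0.64 and Chd7 farthest right at 0.21, and most intervals cross 0.

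The genes shared features that the choice by name did not use. Their median exon length, 14028 bases, was longer than that of 97.1% of tested genes, and their median mean level, 62.6 CPM, was above that of 79.2%. Scaled to exon length, the median of 5.55 CPM per kilobase stood close to that of all tested genes (4.12). RefSeq promoter entries (build GRCm38.p6) matched 30 of the 40 genes. In the 250 bases before the start, taken as the annotated start nearest to the gene's first base, the 30 held a median of 26 CpG dinucleotides (range 0 to 51) against 15 over 12760 tested genes, and 27 of 30 held 10 or more (90% against 69.4%). For Setd5 the listed start lies 27570 bases inside the gene, and its window held 0. The letters AAAGTT, the core of the motif that the study describes for MYT1L, were searched on both strands and found in 1 of 30 windows (Baz2b, at a start inside the gene) against 9.93% of tested genes, a description of these windows and not of binding. The 30 windows had a median of 69.6% G and C bases, against 59.6% in tested genes, and the part of this in the AAAGTT count was not tested. Of the 30 starts, 22 lay within 1000 bases of the gene's first base.

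The promoters of Kdm5b, lower in every (+/−) animal, of Smarca4, the most abundant member per kilobase, and of Chd8, nearly equal between genotypes, are shown as examples of these windows. They are chr1:134559928-134560177 on the plus strand, chr9:21615919-21616168 on the plus strand and chr14:52257761-52258010 on the minus strand, with 13, 25 and 20 CpG dinucleotides in capitals.
Kdm5b: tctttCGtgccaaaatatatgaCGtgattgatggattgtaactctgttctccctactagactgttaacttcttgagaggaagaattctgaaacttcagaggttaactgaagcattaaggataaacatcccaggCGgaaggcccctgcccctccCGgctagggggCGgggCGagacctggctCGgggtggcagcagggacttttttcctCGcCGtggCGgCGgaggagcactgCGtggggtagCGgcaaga
Smarca4: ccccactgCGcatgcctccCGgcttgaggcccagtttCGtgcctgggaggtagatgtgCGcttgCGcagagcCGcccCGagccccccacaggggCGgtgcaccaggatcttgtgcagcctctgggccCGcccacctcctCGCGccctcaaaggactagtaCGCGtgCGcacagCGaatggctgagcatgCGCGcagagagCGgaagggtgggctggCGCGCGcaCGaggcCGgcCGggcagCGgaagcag
Chd8: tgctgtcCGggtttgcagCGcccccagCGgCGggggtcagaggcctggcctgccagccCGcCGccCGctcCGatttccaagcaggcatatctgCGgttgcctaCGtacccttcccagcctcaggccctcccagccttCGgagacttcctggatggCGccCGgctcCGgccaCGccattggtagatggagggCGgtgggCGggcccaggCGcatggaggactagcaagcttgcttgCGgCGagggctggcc
CpG dinucleotides crowd the whole window in Smarca4, whereas in Kdm5b 11 of 13 lie in the 120 bases nearest to the start.

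Among the 4 CHD remodellers, ATPases that move nucleosomes, 1 gene lay below the controls in every (+/−) animal. Chd3, an ATPase of the NuRD co-repressor complex, had 160, 217 and 254 CPM in animals 505, 506 and 508, and 256, 279 and 273 CPM in 510, 511 and 513. Its log2 fold change was −0.36 (SE 0.16, adjusted p = 0.24). The highest (+/−) animal nearly reached the lowest (+/+) animal, and without animal 505 the value was −0.20.

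Chd7, the CHARGE syndrome gene, had 22.8, 16.1 and 16.3 CPM against 16.8, 13.95 and 17.0 CPM, a log2 fold change of 0.21 (SE 0.16, adjusted p = 0.43) that came from animal 505, the other (+/−) animals lying within the control range. Chd8, whose haploinsufficient mice the study set beside its own, had 85.2, 83.7 and 90.1 CPM against 81.9, 85.8 and 88.5 CPM. Its log2 fold change was 0.02 (SE 0.08, adjusted p = 0.91, 95% interval −0.17 to 0.20). Chd2 had a log2 fold change of −0.13 with overlapping animals.

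The 5 BAF subunits, parts of the SWI/SNF remodelling complex that swaps subunits as progenitors become neurons, all overlapped between genotypes. Smarca4, the main ATPase, had 177, 194 and 204 CPM against 223, 238 and 202 CPM, a log2 fold change of −0.20 (SE 0.10, adjusted p = 0.27). Only animal 513 of the controls lay within the (+/−) range. The alternative ATPase Smarca2, the DNA-binding subunits Arid1a and Arid1b and the core subunit Smarcc2 had log2 fold changes of 0.04, −0.07, −0.07 and −0.04.

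The 9 histone methyltransferases and SET-domain proteins included the gene with the smallest p of the 40. Setd5 (ENSMUSG00000034269.12, chr6:113077365-113153435, mm10), a SET-domain protein tied to co-repressor complexes, had 96.4, 101 and 95.6 CPM in the (+/−) animals and 140, 138 and 115 CPM in the (+/+) animals. The (+/−) mean was 74.6% of the (+/+) mean, and the log2 fold change was −0.42 (SE 0.10, 95% interval −0.66 to −0.19, adjusted p = 0.17). The 3 (+/−) values lay within a few CPM of each other, clear of the lowest control. The fold change was −0.41 without animal 505 and −0.38 with genetic sex as a covariate. DESeq2 on the same 6 animals called Setd5 lower (adjusted p = 0.015).

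Kmt2e, which carries a reader domain beside its SET domain, was also below the controls in every (+/−) animal, with 73.4, 71.5 and 81.1 CPM against 81.6, 89.7 and 82.6 CPM (log2 fold change −0.17, SE 0.09, adjusted p = 0.28). Setd2, which methylates histone H3 along transcribed genes, had 63.8, 58.3 and 62.1 CPM against 56.6, 58.3 and 59.1 CPM (log2 fold change 0.08, SE 0.08, adjusted p = 0.51). Ash1l, a methyltransferase that counters Polycomb silencing, had 82.0, 81.5 and 89.3 CPM against 70.4, 82.2 and 88.4 CPM (log2 fold change 0.07, SE 0.10, adjusted p = 0.69). In these last 2 genes the genotypes overlapped. The promoter and enhancer methyltransferases Kmt2a, Kmt2c and Kmt2d had log2 fold changes of 0.01, 0.01 and −0.14, Nsd1 of −0.09 and the euchromatic repressor Ehmt1 of −0.02.

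Of the 6 demethylases and readers, 2 demethylases lay below the controls in every (+/−) animal. Kdm6b (ENSMUSG00000018476.7, chr11:69398508-69413675), which removes the Polycomb mark from histone H3, had 52.6, 51.1 and 57.3 CPM against 70.5, 66.9 and 62.7 CPM. The log2 fold change was −0.31 (SE 0.09, 95% interval −0.51 to −0.11, adjusted p = 0.17), and it was −0.30 without animal 505. DESeq2 called Kdm6b lower too (adjusted p = 0.049). The gap between the highest (+/−) and the lowest (+/+) animal was a few CPM, and animal 505 was not the lowest.

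Kdm5b, which removes methyl groups from active promoters, had 73.8, 79.9 and 79.1 CPM against 91.1, 94.1 and 80.1 CPM, a log2 fold change of −0.19 (SE 0.09, adjusted p = 0.25), with animal 513 just above the (+/−) animals. Asxl3, a partner of the Polycomb deubiquitinase and the scarcest of the 40 genes, had 3.02, 4.32 and 4.79 CPM against 5.30, 6.68 and 4.61 CPM, from 137 to 300 counts an animal. Its log2 fold change was −0.45 (SE 0.22, adjusted p = 0.25), and it was −0.28 without animal 505. The CoREST reader Phf21a and the bromodomain proteins Phip and Baz2b had log2 fold changes of −0.07, 0.03 and 0.04.

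The 5 acetyltransferases and co-repressors held the highest positive values beside Chd7. Crebbp and Ep300 are paralogous acetyltransferases that work at enhancers. Crebbp had 40.9, 34.0 and 43.9 CPM against 28.9, 34.4 and 40.1 CPM (log2 fold change 0.20, SE 0.14, adjusted p = 0.40), and Ep300 had 62.9, 52.5 and 56.3 CPM against 48.0, 51.4 and 55.3 CPM (log2 fold change 0.15, SE 0.10, adjusted p = 0.36). Both overlapped between genotypes, since animal 506 lay among the controls. Ncor1, the scaffold of the NCoR co-repressor, had 155, 166 and 169 CPM against 176, 188 and 180 CPM (log2 fold change −0.15, SE 0.09, adjusted p = 0.31), without overlap. Its partner Tbl1xr1 had a log2 fold change of 0.04, and Ankrd11, which recruits histone deacetylases, of −0.04.

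Of the 4 DNA methylation and heterochromatin genes, Dnmt3a (ENSMUSG00000020661.15, chr12:3806007-3914443), the enzyme that writes new DNA methylation in young neurons, had 133, 151 and 169 CPM against 186, 203 and 175 CPM. The log2 fold change was −0.32 (SE 0.12, 95% interval −0.59 to −0.05, adjusted p = 0.19), and it was −0.24 without animal 505. Of the (+/−) animals, 505 was lowest and 508 highest, an order also seen in Bcl11a, Chd3, Smarca4 and other risk genes. Mbd5, a methyl-binding-domain protein, Adnp, a partner of CHD4 in silencing, and Pogz, a heterochromatin protein, had log2 fold changes of −0.12, −0.03 and 0.04.

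The 4 transcription factors all had negative values. Bcl11a (ENSMUSG00000000861.15, chr11:24078056-24174123), a zinc finger repressor of developing cortex that joins BAF complexes, had the lowest log2 fold change of the 40 genes. It had 31.9, 54.5 and 56.7 CPM against 73.3, 85.1 and 64.4 CPM, a log2 fold change of −0.64 (SE 0.22, 95% interval −1.14 to −0.14, adjusted p = 0.18). Animal 505 was far below the others, and without it the value was −0.42. DESeq2 called Bcl11a lower (adjusted p = 0.061).

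Tcf20 (ENSMUSG00000041852.15, chr15:82808436-82987872), a nuclear co-regulator, had 50.7, 60.2 and 59.3 CPM against 62.8, 73.3 and 69.5 CPM (log2 fold change −0.27, SE 0.10, adjusted p = 0.19), again with animal 505 lowest and no overlap. Tcf4, the Pitt-Hopkins syndrome gene and the most abundant of the 40 in CPM, had 420, 449 and 458 CPM against 411, 467 and 491 CPM (log2 fold change −0.04, SE 0.11, adjusted p = 0.81), with overlapping animals. Foxp1, a forkhead repressor, had a log2 fold change of −0.01.

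Of the last 3 genes, Med13l, of the Mediator kinase module, had 62.03, 58.1 and 59.4 CPM against 67.1, 64.9 and 63.9 CPM (log2 fold change −0.13, SE 0.08, adjusted p = 0.32), without overlap. Trip12, a ubiquitin ligase, had 194, 181 and 189 CPM against 186, 184 and 188 CPM (log2 fold change 0.01, SE 0.08, adjusted p = 0.92), and its genotypes overlapped. Wac, an adaptor for histone ubiquitination, had a log2 fold change of −0.11.

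**Figure D2:**
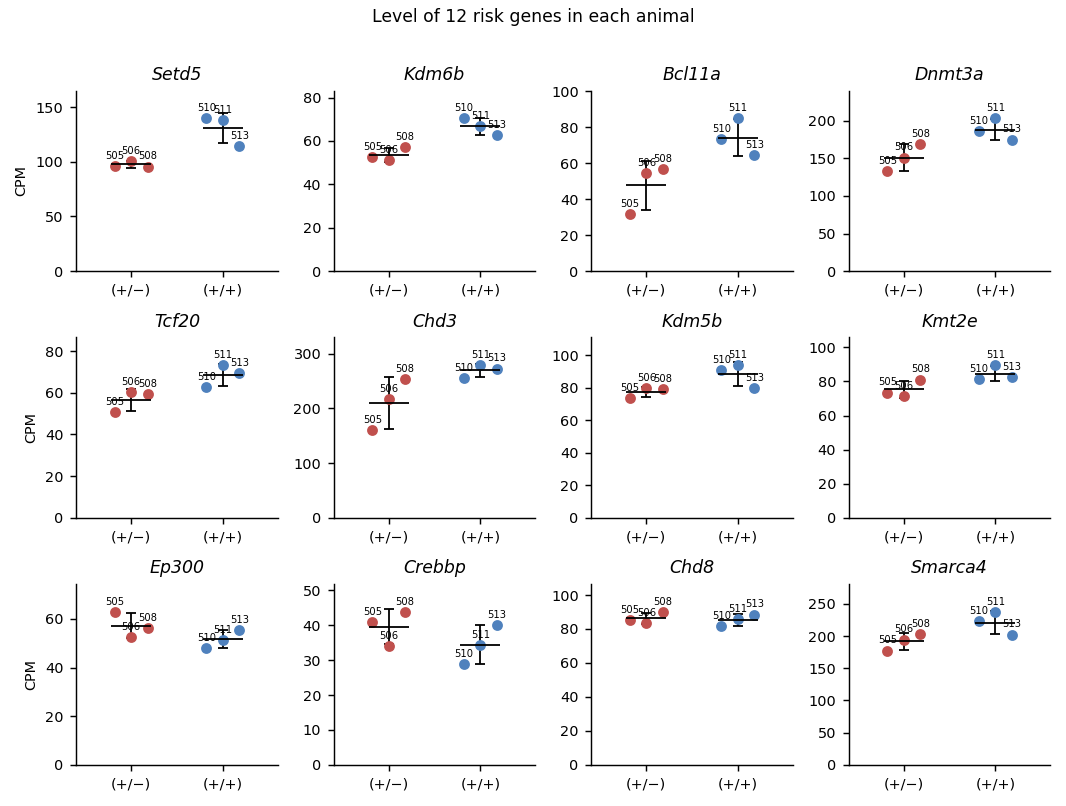
Level in CPM of 12 risk genes in each animal, one point an animal with its number; the horizontal bar is the mean and the whiskers the SD of 3 animals. In Setd5 the (+/−) animals cluster between 95.6 and 101 CPM below all controls, in Bcl11a animal 505 stands apart at 31.9 CPM, and in Chd8 the genotypes lie on the same level.

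Seen by animal, the mean deviation of the 40 genes from the (+/+) mean was −0.13, −0.13 and −0.02 on the log2 scale in animals 505, 506 and 508, and −0.06, 0.05 and 0.01 in animals 510, 511 and 513. Animal 508 thus lay within the range of the controls. Animal 510 had the lowest value of the 6 animals in 13 genes, animal 505 in 12 and animal 506 in 11, whereas animal 511 had the highest value in 16. The controls also spread among themselves, in Kmt2c, Kmt2a, Ash1l and Crebbp, which were lowest in animal 510, and in Asxl3, Bcl11a and Setd5, where animal 513 was the lowest control.

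**Figure D3:**
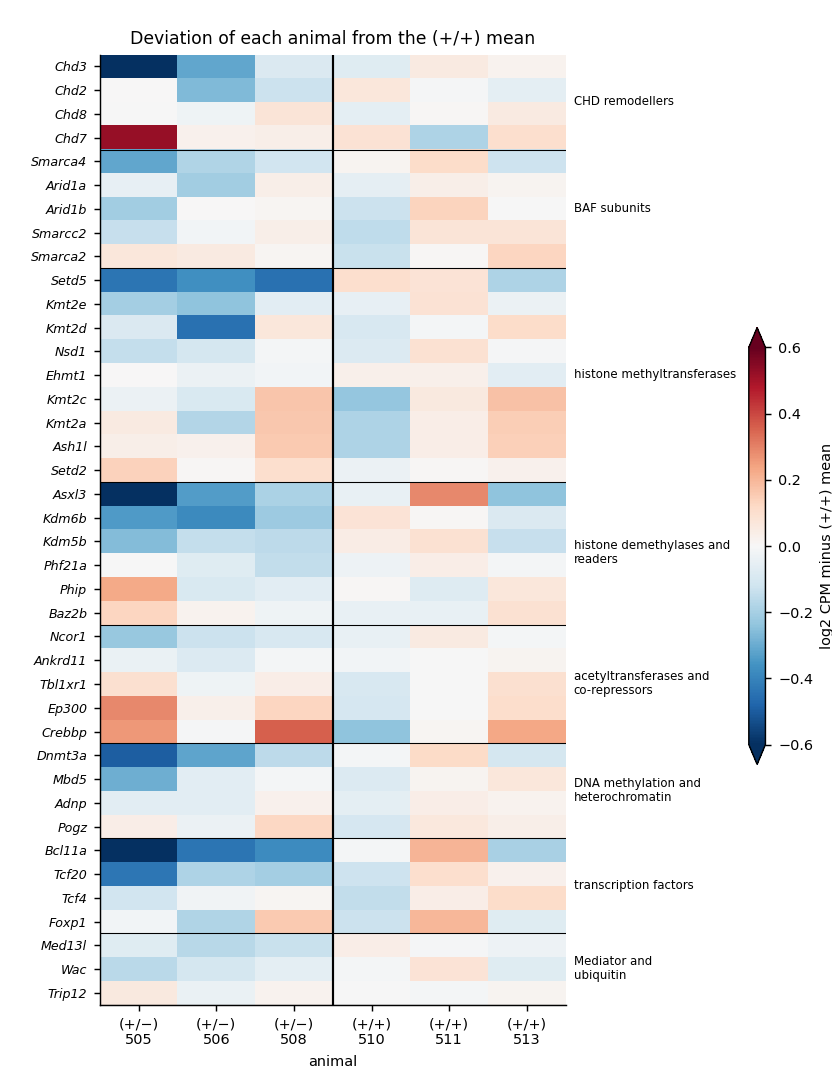
Log2 CPM of each risk gene in each animal minus the (+/+) mean, in colour from −0.6 (blue) to 0.6 (red), with genes in rows by role and animals in columns. Setd5, Kdm6b, Bcl11a, Chd3 and Asxl3 are among the genes below 0 in all 3 (+/−) animals. Bcl11a, Chd3 and Asxl3 are deepest in animal 505, where Chd7 is the reddest value.

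Per kilobase of exon, the levels of the 40 genes spanned from 0.305 CPM per kilobase in Asxl3 to 31.9 in Smarca4. Smarca4, Chd3 (28.4) and Smarcc2 (27.7) formed the top of the order, with (+/−) levels of 29.6 ± 2.0, 24.9 ± 5.6 and 27.3 ± 1.7 CPM per kilobase (SD, n = 3) and (+/+) levels of 34.1 ± 2.7, 31.9 ± 1.4 and 28.1 ± 2.5. Smarca4 exceeded Smarcc2 in all 6 animals and Chd3 in every animal except 513. By these SDs, Smarca4 overlapped with Chd3 in both genotypes and with Smarcc2 in the (+/−) group. Adnp (17.2), Tcf4 (16.4), Wac (14.3) and Ncor1 (13.4) came next. At the lower end, Foxp1 (1.53), Mbd5 (1.47), Chd7 (1.25) and Baz2b (1.08) lay close together and well above Asxl3.

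**Figure D4:**
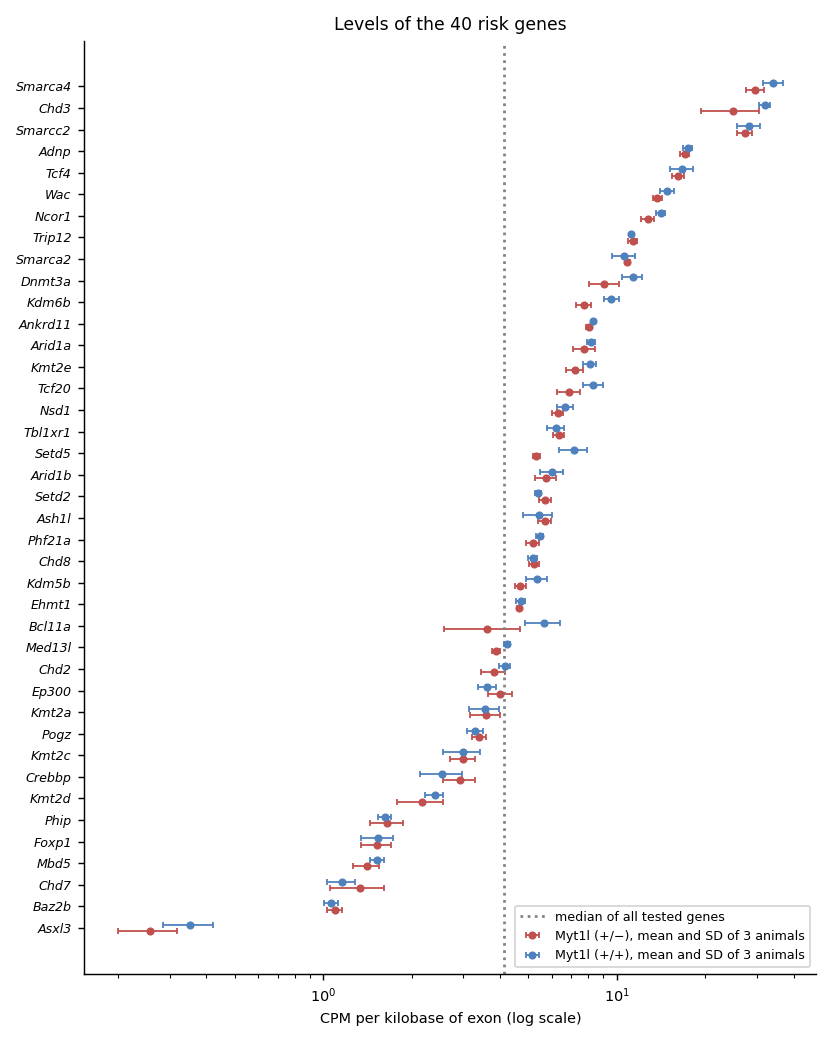
Level of each risk gene in CPM per kilobase of exon on a log axis, mean and SD of 3 animals for each genotype, ordered by the mean of all animals; the dotted line is the median of all tested genes, 4.12. Genotype means sit almost on each other for most genes, and the genes span from 0.305 to 31.9.

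A list of 120 partner subunits and paralogs of the same complexes was read from the same fit. All 120 were tested and 0 passed the threshold. Their median log2 fold change was −0.06, with 21 lower (17.5%, background 9.11%) and 9 higher (7.5%, background 13.2%) at an unadjusted p under 0.05. In 31 genes (25.8%, background 13.5%) every (+/−) animal lay below every (+/+) animal, and in 13 (10.8%, background 15.5%) above.

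Among the BAF subunits that are exchanged as progenitors become neurons, 2 neuronal subunits and their progenitor counterparts lay on opposite sides, and a further progenitor subunit lay on the neuronal side. The neuronal subunit Actl6b had 25.03, 42.8 and 41.3 CPM in the (+/−) animals and 54.9, 61.3 and 47.6 CPM in the (+/+) animals (log2 fold change −0.59, SE 0.20, adjusted p = 0.18). Its progenitor counterpart Actl6a had 18.05, 15.4 and 16.0 CPM against 11.1, 10.6 and 15.1 CPM (log2 fold change 0.43, SE 0.16, adjusted p = 0.19). Both were without overlap. The neuronal subunits Ss18l1 and Dpf1 had log2 fold changes of −0.39 and −0.58, and the progenitor subunit Ss18 of 0.41, while Brd9, of the non-canonical BAF complex, had −0.39. Phf10, a progenitor subunit exchanged for Dpf1 or Dpf3, had 40.9, 45.7 and 43.3 CPM against 49.2, 50.3 and 45.9 CPM (log2 fold change −0.16, SE 0.08, adjusted p = 0.27), without overlap, whereas the neuronal Dpf3 (−0.11) overlapped between genotypes.

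The ratio of neuronal to progenitor subunit, as log2 of CPM per kilobase, was 0.34, 1.34 and 1.23 for Actl6b over Actl6a in animals 505, 506 and 508, and 2.18, 2.40 and 1.52 in animals 510, 511 and 513. The difference of means was −1.06, and −0.75 without animal 505. For Ss18l1 over Ss18 the difference was −0.82, and −0.52 without animal 505. In both pairs every (+/−) animal lay below every (+/+) animal, and animal 505 was lowest. For Dpf1 over its paralog Dpf2, whose own levels overlapped between genotypes, the difference was −0.58, and −0.37 without animal 505. Of 15 pairs of related genes, chosen after their values had been seen, Chd3 over Chd4 (−0.43) and Dnmt3a over Dnmt1 (−0.29) were also lower without overlap, and Ehmt1 over Ehmt2 (0.20) was higher without overlap. Each of these 6 reached p = 0.1 in the exact two-sided permutation test over animals, the smallest value that 3 against 3 allows, or 0.25 after adjustment over the 15 pairs. The paralog pairs made of 2 risk genes, Smarca2 over Smarca4, Arid1b over Arid1a, Crebbp over Ep300, Kmt2d over Kmt2c and Setd5 over Kmt2e, overlapped between genotypes.

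**Figure D5:**
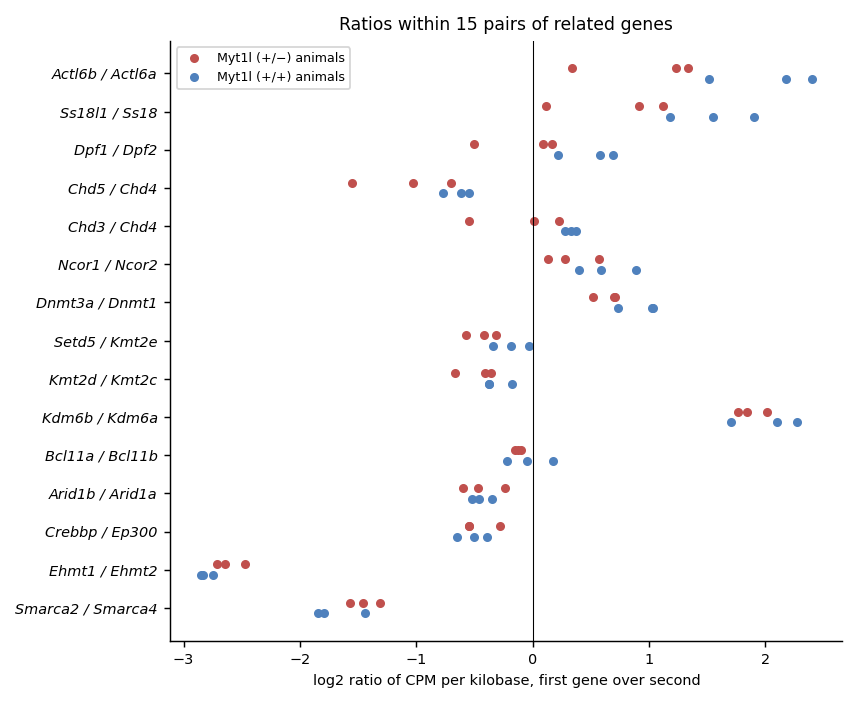
Log2 ratio of CPM per kilobase of the first gene over the second in each animal for 15 pairs of related genes, red for (+/−) and blue for (+/+) animals, ordered by the difference of means. Actl6b over Actl6a shows the widest gap (−1.06), with animal 505 farthest left at 0.34, while Crebbp over Ep300 overlaps.

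In the co-repressor complexes the paralogous deacetylases also lay on opposite sides. Hdac1 had 49.8, 42.3 and 43.3 CPM against 30.2, 30.6 and 39.8 CPM (log2 fold change 0.43, SE 0.13, adjusted p = 0.17), and Hdac2 had 54.9, 62.3 and 59.2 CPM against 69.0, 71.9 and 63.7 CPM (log2 fold change −0.21, SE 0.09, adjusted p = 0.21). Both pairs of groups were separate. The NuRD subunits Mta2 and Mta3 had log2 fold changes of 0.20 and −0.23, and the CoREST member Hmg20b and the NCoR member Gps2 had 0.30 and 0.41.

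Uhrf1, which keeps DNA methylation through replication and is made in dividing cells, had 8.84, 7.48 and 7.92 CPM against 5.13, 4.81 and 6.25 CPM, the highest log2 fold change among the partners (0.58, SE 0.15, adjusted p = 0.17), and the demethylating enzyme Tet2 had −0.32. Among the methyltransferase partners, Setd1a and Kmt2b had −0.31 and −0.27 and Nsd2 had −0.27. The acetyltransferase paralogs Kat2a and Kat2b had −0.32 and 0.44, the demethylases Kdm2b and Kdm4b −0.46 and −0.40, the Polycomb partners Bap1 and Asxl2 −0.33 and 0.34, and the Mediator kinase subunits Med12l and Cdk8 −0.40 and −0.25. Of the paralogous factors, Foxp4 had −0.41 and Bcl11b −0.56, the second without overlap (21.0, 37.2 and 38.0 CPM against 39.9, 60.9 and 41.1 CPM) and, as in Bcl11a, lowest in animal 505.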

How the data were processed

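Primary cultures of 6 mice were sequenced as 12 libraries. The authors aligned dUTP paired-end reads to mm10 with STAR, and the deposited table holds raw counts per gene; no source used here names the counting tool. The deposited normalized table and the table of the authors' fold changes and p-values were not used. Counts of the 2 libraries of an animal were summed. Genes were filtered with filterByExpr by genotype, scaled by TMM and fitted in edgeR 4.0.16 (R 4.3.3; glmQLFit, glmQLFTest) without covariates, with Benjamini-Hochberg adjustment over all 18264 tested genes and a threshold of 0.1, the study's. SE is the absolute log2 fold change over the square root of F. The test was checked on simulated counts. Alternatives were DESeq2 1.42.0, limma 3.58.1 voom, other filters and scalings, single libraries, genetic sex as a covariate and leaving out each animal. With 3 animals a genotype the precision is set by their spread, and counting error is small beside it.

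The 40 genes and all lists were chosen with earlier results of these data known. Genes given in full are the 5 with the smallest p in each direction, the most abundant of each role, the extremes per kilobase, Chd8 and Myt1l; from the partner list, up to 2 a direction and complex with an unadjusted p under 0.05. Kmt2e, Med13l, Actl6b, Ss18l1, Phf10, Dpf3 and Bcl11b were added after their values were seen. One partner gene that the rule names is not reported here.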

Additional observations from a re-analysis of the deposited data

How the results depend on the processing

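The median log2 fold change of the risk genes stayed negative, and 0 risk genes were called higher, under all 16 alternatives. The median was −0.11 without animal 510, −0.098 without 508 and −0.035 without 511. Risk genes called lower numbered 3 with DESeq2 (Setd5, Kdm6b, Bcl11a), 2 with no low-count filter (Setd5, Bcl11a) and 0 to 2 when 1 animal was left out, the 2 (Setd5, Kdm6b) without animal 513. Without a low-count filter 1.4% of genes were called lower, and without animal 513 5.95%. On 12 libraries with the animal as a random effect (limma voom), 7 were called lower (Setd5, Kdm6b, Bcl11a, Chd3, Dnmt3a, Tcf20, Smarca4; background 11%), and 7 with a replicate block for the library number (background 9.88%). Library numbers paired no animals, since differences between libraries correlated by −0.038 to 0.029 between animals. Calls among partners were 2 higher and 10 lower with DESeq2, 1 and 6 without the filter, 11 and 25 on 12 libraries, 10 and 23 with the replicate block, and from 0 to 8 higher and 0 to 11 lower on leaving out an animal. Over all genes they were 1343 and 790, 1021 and 454, 2169 and 2007, 1993 and 1804, and from 0 to 2294 and 0 to 1109. As background to the calls among the 120 partners, DESeq2 called 7.77% of tested genes higher and 4.57% lower. The fit without animal 513 called 12.3% higher and 5.95% lower. Genes called lower were 1.4% without the filter, 11% on 12 libraries and 9.88% with the replicate block. Risk genes lower at an unadjusted p under 0.05 numbered 10 on 12 libraries (background 14.9%), 9 with the replicate block (14.1%), 2 with genetic sex as a covariate (3.06%) and 2 to 7 on leaving out an animal (2 without 511, background 3.03%, and 3 without 505, background 6.55%). Those with no overlap, on leaving out an animal, numbered 10 to 17 below (17 without 508, background 21.2%, and 16 without 513, background 26.8%) and 0 to 4 above (4 without 506, background 21.8%, and 3 without 513, background 28.4%), 2 animals against 3 separating more often in all genes. On library 1 alone 7 risk genes lay below without overlap (background 13.3%), and on library 2 alone 10 (background 13%). The cause was not tested for any of these shifts.

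Of 40 risk genes, 25 kept their sign under all 16 alternatives, and the other 15 lay near 0. Leaving out 1 animal gave −0.029 to 0.13 for Ash1l, −0.0088 to 0.029 for Trip12, −0.13 to 0.00059 for Tcf4, −0.024 to 0.032 for Chd8, −0.098 to 0.31 for Myt1l, −0.14 to 0.0022 for Arid1b, −0.018 to 0.074 for Pogz, −0.0052 to 0.074 for Baz2b, −0.035 to 0.096 for Smarca2, −0.023 to 0.074 for Tbl1xr1, −0.13 to 0.0049 for Smarcc2, −0.078 to 0.075 for Phip, −0.085 to 0.090 for Kmt2a, −0.11 to 0.094 for Foxp1 and −0.11 to 0.088 for Kmt2c. Signs also turned with DESeq2 for Trip12 (−0.0020), Kmt2a (−0.0026), Kmt2c (−0.0088), with its size factors in edgeR for Kmt2c (−0.0026), with no filter for Kmt2c (−0.0012), with library 1 alone for Ehmt1 (0.00028), Foxp1 (0.0092), Kmt2c (−0.020), with library 2 alone for Chd8 (−0.0022), Tbl1xr1 (−0.010), Kmt2a (−0.00086), with genetic sex as a covariate for Arid1b (0.0021), Phip (−0.0076), Foxp1 (0.095).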
